A study of Mus musculus with 6 samples.

Results

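The genes described here are 8 genes of the myelin sheath, Mbp, Mog, Mag, Mobp, Cnp, Mal, Cldn11 and Opalin, and Myrf, the transcription factor that switches them on. They were chosen by symbol, and the 9 genes were found among 32285 mouse genes in the gene lists of the Foxr2 p53LOF and Foxr2 alone libraries. The question was where their RNA and the open chromatin at their starts lie: in mature oligodendrocytes, in tumor nuclei that resemble oligodendrocyte precursors, or in other nuclei as RNA shed by broken cells.

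All libraries came from brain lesions of C57BL/6J mice that were electroporated in utero with piggyBac vectors, so every sample carries Foxr2 driven by the broadly active CAG promoter together with GFP. A vector for the luciferase Akaluc, which also makes GFP, was delivered along with it. Foxr2 p53LOF also received Cas9 and a guide against Trp53 (the p53 gene), and whether Foxr2 alone received Cas9 with a control guide is not given in the sources used here. The ages of the animals are not given in the sources used here, and no library of untouched brain was analysed here. In each nucleus the 10x Multiome assay counted both RNA molecules (UMIs) and ATAC-seq events, which mark open chromatin. RNA levels are in CPM: UMIs were summed over a class of nuclei in a library and scaled to a total of 1000000. ATAC levels are in peak CPM, with the total of all counts in peaks scaled the same way. Counts were analysed for 1 library of each genotype, so genotype and library cannot be told apart, no test between them was possible, and every interval in brackets is a 95% interval of counting error only. Of the second Foxr2 alone library only the peak list and barcodes were used. After filters 8359 nuclei remained in Foxr2 p53LOF and 8316 in Foxr2 alone, with medians of 5527 and 3637 UMIs. Before filters these libraries shared 140 cell barcodes, 1.39% of the 10096 of Foxr2 alone.

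Oligodendrocytes wrap axons in myelin, a compacted stack of membrane. Their precursors leave the cell cycle, pass through a committed stage and then turn on myelin genes, and Myrf, made as a membrane-bound protein that cuts itself to free its DNA-binding part, is needed for that last step. The SOX10 protein acts before Myrf and then together with it on myelin genes.

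Classes of nuclei were named from markers that do not include the 9 genes, and the 9 genes were kept out of the clustering. Foxr2 p53LOF held 1526 oligodendrocyte-like, 1801 immune-like, 1091 astrocyte-like and 2252 neuron-like nuclei. Foxr2 alone held 3019, 424, 426 and 4245, respectively. Oligodendrocyte-like nuclei had all 8 of their markers, such as Aspa and Hapln2, with summed levels of 13864 and 6949 CPM in Foxr2 p53LOF and Foxr2 alone. Precursor-like tumor nuclei are 1291 nuclei of Foxr2 p53LOF in 1 cluster with markers of committed oligodendrocyte precursors such as Bmp4 and Enpp6. In these nuclei 7 of 8 committed precursor markers and 8 of 8 oligodendrocyte precursor markers were raised, and the leading genes decided between these 2 names. By the same rule 8 of 8 oligodendrocyte and 5 of 8 astrocyte markers were raised too. The median log2 scores of the 4 marker lists were 4.43, 3.86, 2.94 and 2.35 in that order. ATAC counts on the electroporated vector were present in 26.5% (24.1 to 29.0%) of them, against 2.22% (1.59 to 3.01%) of immune-like nuclei and 0.786% of oligodendrocyte-like nuclei. Foxr2 RNA stood at 91.3 CPM in them, 28.0 in oligodendrocyte-like and 32.8 in immune-like nuclei. Neither trait was theirs alone. Astrocyte-like nuclei of Foxr2 p53LOF had 72.3 CPM of Foxr2 RNA and vector counts in 31.0%. An unnamed class of 224 nuclei, with T cell and astrocyte markers, had 88.4 CPM and vector counts in 2.68%. A cluster of oligodendrocyte precursor-like (OPC-like) nuclei, 94 in Foxr2 p53LOF and 171 in Foxr2 alone, did not pass that vector threshold in Foxr2 p53LOF (2.13%, 0.259 to 7.48%) and was kept apart. In Foxr2 p53LOF, committed precursor markers summed to 2947 CPM in precursor-like tumor and 2755 in OPC-like nuclei. Oligodendrocyte precursor markers summed to 2001 and 13413. The peak list of Foxr2 alone holds no vector peak, so no tumor nuclei could be marked that way there.

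The promoters of 7 of the 9 genes, 250 bases before to 50 bases after a RefSeq start, were read from RefSeq sequences of GRCm38.p6, the build that mm10 corresponds to. They were searched on both strands for the letters CTGGCAC and CTGGTAC (the core that MYRF binds), ACAAAG and ACAATG (cores that SOX proteins bind) and CAGCTG (an E-box, which basic helix-loop-helix proteins such as OLIG2 bind). The table holds 9 promoters for these 7 genes, since Mag has 3, of which 2 overlap. A MYRF core stood in 5 of the 9 promoters, 2 of Mag and those of Cnp, Mog and Opalin, against 7.10% of all 32851 RefSeq promoters. The 2 Mag promoters hold the same site, so by gene a MYRF core stood in 4 of 7. ACAAAG stood in Cnp, Mag, Mobp and Opalin, against 18.7% of all promoters, with 6 matches in Mobp, while no ACAATG (12.6% of all promoters) was found in the 7 genes. CAGCTG, found in 16.3% of all promoters, stood in Opalin. Promoters of Cldn11 and Mal and the other Mag promoter (chr7:30914272-30914571) held none of these letters, which says only that they are not in these windows. The 5 sequences given next, 1 for each gene with a match, are shown for that reason, with the matches in capitals.
Cnp, chr11:100574689-100574988, plus strand: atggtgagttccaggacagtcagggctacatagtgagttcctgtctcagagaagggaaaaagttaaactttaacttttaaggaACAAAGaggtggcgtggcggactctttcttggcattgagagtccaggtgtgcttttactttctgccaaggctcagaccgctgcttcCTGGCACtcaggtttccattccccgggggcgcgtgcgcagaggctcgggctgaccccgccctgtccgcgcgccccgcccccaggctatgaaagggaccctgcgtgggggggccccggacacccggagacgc
Mag, chr7:30914814-30915113, minus strand: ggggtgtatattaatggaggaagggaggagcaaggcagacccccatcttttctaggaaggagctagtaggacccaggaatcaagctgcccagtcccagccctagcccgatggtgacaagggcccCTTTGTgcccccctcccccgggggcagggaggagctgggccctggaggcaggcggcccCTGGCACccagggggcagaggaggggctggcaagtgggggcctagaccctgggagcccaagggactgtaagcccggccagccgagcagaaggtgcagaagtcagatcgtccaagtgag
Mog, chr17:37023349-37023648, minus strand: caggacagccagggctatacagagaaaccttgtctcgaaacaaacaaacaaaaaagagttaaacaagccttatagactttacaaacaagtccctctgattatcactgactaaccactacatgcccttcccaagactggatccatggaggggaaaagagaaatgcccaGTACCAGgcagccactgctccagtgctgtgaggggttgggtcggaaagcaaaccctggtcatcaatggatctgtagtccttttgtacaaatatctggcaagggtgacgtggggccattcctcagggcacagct
Opalin, chr19:41077064-41077363, minus strand: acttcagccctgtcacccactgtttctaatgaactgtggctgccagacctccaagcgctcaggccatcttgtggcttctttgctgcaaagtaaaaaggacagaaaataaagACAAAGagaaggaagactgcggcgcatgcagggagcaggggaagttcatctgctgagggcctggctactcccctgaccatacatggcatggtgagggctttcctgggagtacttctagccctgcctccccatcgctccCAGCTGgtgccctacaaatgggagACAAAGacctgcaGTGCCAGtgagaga
Mobp, chr9:120149492-120149791, plus strand: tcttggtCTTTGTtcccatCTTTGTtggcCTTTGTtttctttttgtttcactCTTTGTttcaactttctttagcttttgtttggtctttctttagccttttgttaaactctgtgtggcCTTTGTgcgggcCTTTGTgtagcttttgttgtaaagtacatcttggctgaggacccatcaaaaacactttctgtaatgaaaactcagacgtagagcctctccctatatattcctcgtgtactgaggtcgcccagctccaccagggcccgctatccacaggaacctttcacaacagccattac
In each of the 3 libraries, including the peak list of the second Foxr2 alone library, all 300 bases of the Mag, Mog, Opalin and Mobp windows shown lay in a called peak, and between 213 and 245 bases of the Cnp window did. Of the Mag promoter without a match, between 72 and 111 bases lay in one.

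Oligodendrocyte-like nuclei carried each of the 9 genes at a higher level than any other class in both libraries. The 8 myelin genes together made up 10320 (10221 to 10419) CPM in oligodendrocyte-like nuclei from Foxr2 p53LOF and 13311 (13197 to 13426) in those of Foxr2 alone. In immune-like nuclei, which should not make myelin, they stood at 1094 (1070 to 1118) and 823 (750 to 902). The log2 ratio of oligodendrocyte-like over immune-like nuclei was 3.24 (3.20 to 3.27) in Foxr2 p53LOF and 4.01 (3.88 to 4.15) in Foxr2 alone. The latter was 2.86 with doublets kept and 3.28 under stricter minimums for each nucleus. The former was 4.403 when set against the 494 immune-like nuclei outside a cluster led by Lilr4b and Msr1, and against neuron-like nuclei the ratios were 5.73 and 5.84. All 9 genes were at least 2-fold higher in oligodendrocyte-like nuclei in both libraries, where 13.7% of 10385 genes in Foxr2 p53LOF and 16.6% of 11008 genes in Foxr2 alone were (27.3% and 28.8% were 2-fold lower).

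**Figure D1:**
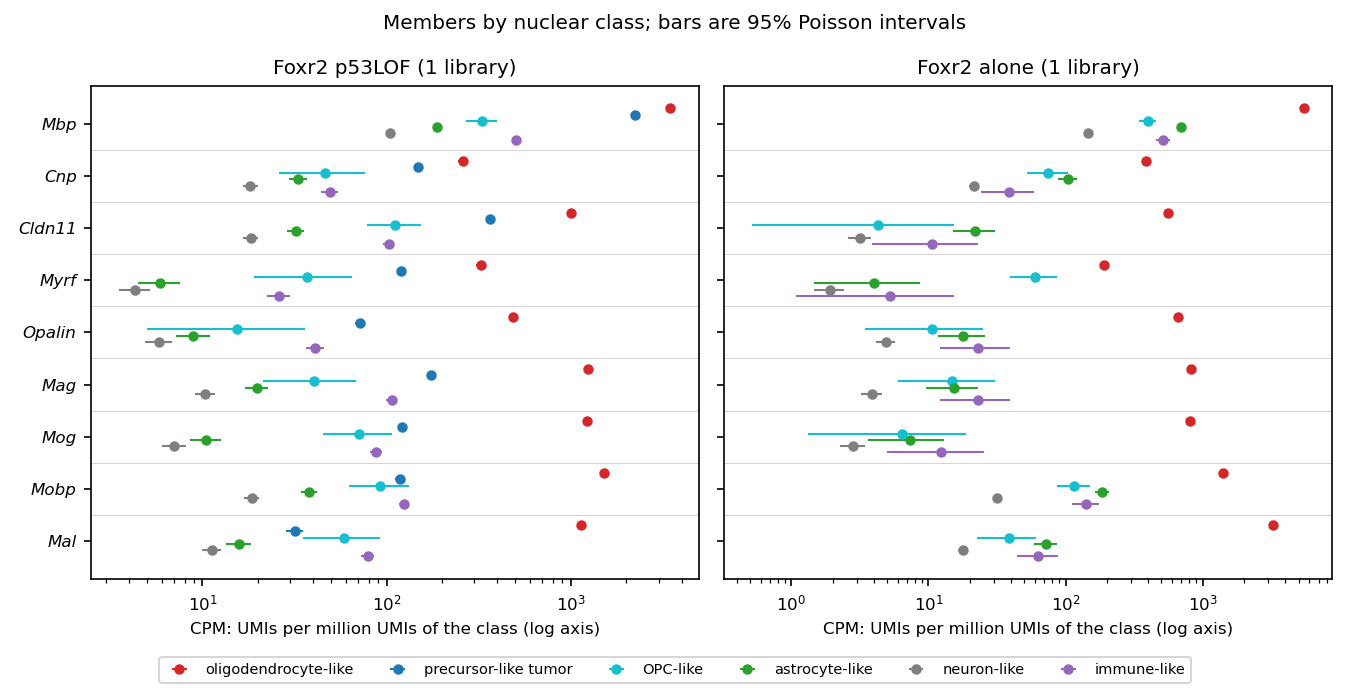
CPM (log axis) for each of the 9 genes, by class, in Foxr2 p53LOF (left) and Foxr2 alone (right), with 95% Poisson intervals as bars. Red points, the oligodendrocyte-like nuclei, lie to the right of all others for every gene, and blue points, the precursor-like tumor nuclei, come close to red for Mbp and Cnp (2239 and 148 CPM) but not for Mal (31.6).

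Genes of compact myelin come first. Mbp (chr18:82475146-82585637, plus strand), whose protein glues the cytoplasmic faces of the membrane together, stood in oligodendrocyte-like nuclei at 3459 CPM in Foxr2 p53LOF and at 5436 in Foxr2 alone. Precursor-like tumor nuclei had 2239 (2212 to 2267), which is 64.7% (63.4 to 66.1%) of the oligodendrocyte-like level of the same library. Per nucleus, the precursor-like tumor nuclei held more Mbp molecules, 20.3 UMIs against 9.24, and they were also deeper (medians of 7454 and 2452 UMIs).
Mobp (chr9:120149707-120181484, plus strand), a small basic protein of compact myelin, behaved otherwise. It stood at 1510 and 1409 CPM in oligodendrocyte-like nuclei of the p53LOF and alone libraries and at 118 (112 to 124) in precursor-like tumor nuclei, 7.80% of the oligodendrocyte-like level. The body of Mobp overlaps Gm38642 on the same strand.
Mal (chr2:127633226-127656695, minus strand) encodes a proteolipid of lipid-rich membrane patches in compact myelin, and it was the member with the largest gap. Its levels were 1131 and 3234 CPM in oligodendrocyte-like nuclei of the 2 libraries, and 31.6 in precursor-like tumor nuclei, 2.80% (2.51 to 3.11%) of the oligodendrocyte-like level.

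Genes of the surface and of the uncompacted parts of the sheath fell on both sides. Cnp (chr11:100574904-100591729, plus strand), a phosphodiesterase that keeps cytoplasmic channels of myelin open, had 260 and 386 CPM in oligodendrocyte-like nuclei of the p53LOF and alone libraries. Precursor-like tumor nuclei kept 148 (141 to 156), or 57.1% (52.9 to 61.7%), and the unnamed class of that library had 53.5%. The body of Cnp overlaps Dnajc7 on the opposite strand.
Cldn11 (chr3:31149920-31164324, plus strand), the claudin that forms tight junctions along the sheath, had 1004 and 556 CPM in oligodendrocyte-like nuclei. Precursor-like tumor nuclei kept 366 (355 to 377), 36.4% of that level.
Mag (chr7:30899176-30914873, minus strand), an adhesion protein that faces the axon, dropped from 1242 to 174 CPM between oligodendrocyte-like and precursor-like tumor nuclei, and stood at 826 in oligodendrocyte-like nuclei of Foxr2 alone. Mog (chr17:37010743-37023398, minus strand), on the outermost face of myelin, dropped from 1229 to 122 and stood at 807. The percentages kept by precursor-like tumor nuclei were 14.0% for Mag and 9.92% for Mog.
Opalin (chr19:41061710-41077113, minus strand), a sialylated membrane protein of oligodendrocytes, stood at 485 and 658 CPM in oligodendrocyte-like nuclei and at 71.7 (67.0 to 76.8) in precursor-like tumor nuclei, 14.8% of the level in the same library.

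Myrf (chr19:10208272-10240748, minus strand) stood at 324 (307 to 342) CPM in oligodendrocyte-like nuclei of Foxr2 p53LOF and 191 (178 to 205) in those of Foxr2 alone. Precursor-like tumor nuclei had 120 (114 to 126), 37.0% (34.3 to 40.0%) of the oligodendrocyte-like level. Per nucleus this came to 1.09 UMIs against 0.865 in oligodendrocyte-like nuclei.
The 9 genes therefore fell into an upper group in precursor-like tumor nuclei, Mbp, Cnp, Myrf and Cldn11 at 36.4% to 64.7% of the oligodendrocyte-like level, and a lower group, Opalin, Mag, Mog, Mobp and Mal at 2.80% to 14.8%. The highest percentage exceeded the lowest 23.1-fold. The mitochondrial share of UMIs was 0.826% in precursor-like tumor, 0.271% in oligodendrocyte-like, 0.270% in immune-like and 1.30% in unnamed nuclei, and its part in these levels was not tested. Neighbours in this order whose intervals overlap are Myrf with Cldn11 and Opalin with Mag. In other classes of Foxr2 p53LOF, Cnp had the highest percentage of the 9 genes. It stood at 53.5% in unnamed, 18.9% in immune-like, 17.8% in OPC-like and 12.7% in astrocyte-like nuclei. At least 2-fold lower in precursor-like tumor than in oligodendrocyte-like nuclei were 7 of the 9 genes, all but Mbp and Cnp, where 9.93% of 10315 genes were (26.4% were 2-fold higher).

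Immune-like nuclei of Foxr2 p53LOF served as the ambient level, the yardstick for RNA from outside a nucleus. Myrf was 4.63-fold higher in precursor-like tumor nuclei than in them (log2 ratio 2.21, 1.99 to 2.43), Mbp 4.44-fold, Cldn11 3.57-fold and Cnp 3.02-fold. Mog, Mag and Opalin were within 2-fold (log2 ratios of 0.48, 0.71 and 0.80), Mobp had a log2 ratio of -0.08 (-0.20 to 0.05), and Mal was lower by a log2 ratio of -1.32 (-1.51 to -1.13). So 4 of the 9 genes were at least 2-fold higher in CPM and 1 was 2-fold lower, where 16.5% of 10895 genes were 2-fold higher and 16.5% lower. CPM divides by depth, and precursor-like tumor nuclei were deeper (medians of 7454 and 2794 UMIs). The other 5 genes had, in 1291 precursor-like tumor and 1801 immune-like nuclei, these UMIs: Mog 1425 and 648, Mag 2038 and 789, Opalin 839 and 304, Mobp 1377 and 919, Mal 370 and 583. The part of depth in these ratios was not tested. The median log2 ratio of the 9 genes, with 1 added to each level, was 0.79, and that of all genes tested was 0.13. Summed, the 8 myelin genes had a log2 ratio of 1.58 (1.55 to 1.61), most of it from Mbp, which gave 660 of every 1000 UMIs of the 9 genes in precursor-like tumor nuclei and 325 in oligodendrocyte-like nuclei.

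The immune-like class is itself uneven, which bears on that yardstick. Of its 1801 nuclei, 1307 formed a cluster led by Lilr4b and Msr1, genes of macrophages, and 492 a cluster led by Siglech and Gpr34, genes of microglia. In the first cluster the 8 myelin genes stood at 1244 CPM, in the second at 488. Mog differed most, with 106 (97.7 to 114) and 13.6 (8.33 to 21.1).
Of the 9 genes, 7 (all but Mbp and Cnp) lay in the Lilr4b and Msr1 cluster between 8.32% (Mal) and 11.4% (Cldn11) of their oligodendrocyte-like level, and Mbp and Cnp at 16.2% and 20.95%. No such common percentage held in precursor-like tumor nuclei, nor in the Siglech cluster, where Mog was at 1.11% and Cnp at 10.8%. Oligodendrocyte markers moved the same way: their summed level was 1483 CPM in the Lilr4b and Msr1 cluster, 549 in the Siglech cluster, 1417 in precursor-like tumor nuclei and 13864 in oligodendrocyte-like nuclei, with none of the 8 at 0 in any of them. The part of these nuclei in the values of the 9 genes was not tested. Measured against the 494 immune-like nuclei outside the Lilr4b and Msr1 cluster, an alternative chosen after the data were seen, the log2 ratio of precursor-like tumor nuclei rose to 2.75 (2.64 to 2.85) for the 8 myelin genes and to 4.001 (3.16 to 5.01) for Myrf. Against the same 494 nuclei, 8 of the 9 genes were at least 2-fold higher in precursor-like tumor nuclei, where 26.0% of 10832 genes were 2-fold higher and 17.4% lower. The other, Mal, had 17.03 CPM in the 494 nuclei and 31.6 in precursor-like tumor nuclei (log2 ratio 0.89, 0.31 to 1.54). Against neuron-like nuclei the log2 ratios were 4.07 for the 8 myelin genes and 4.81 for Myrf.

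**Figure D2:**
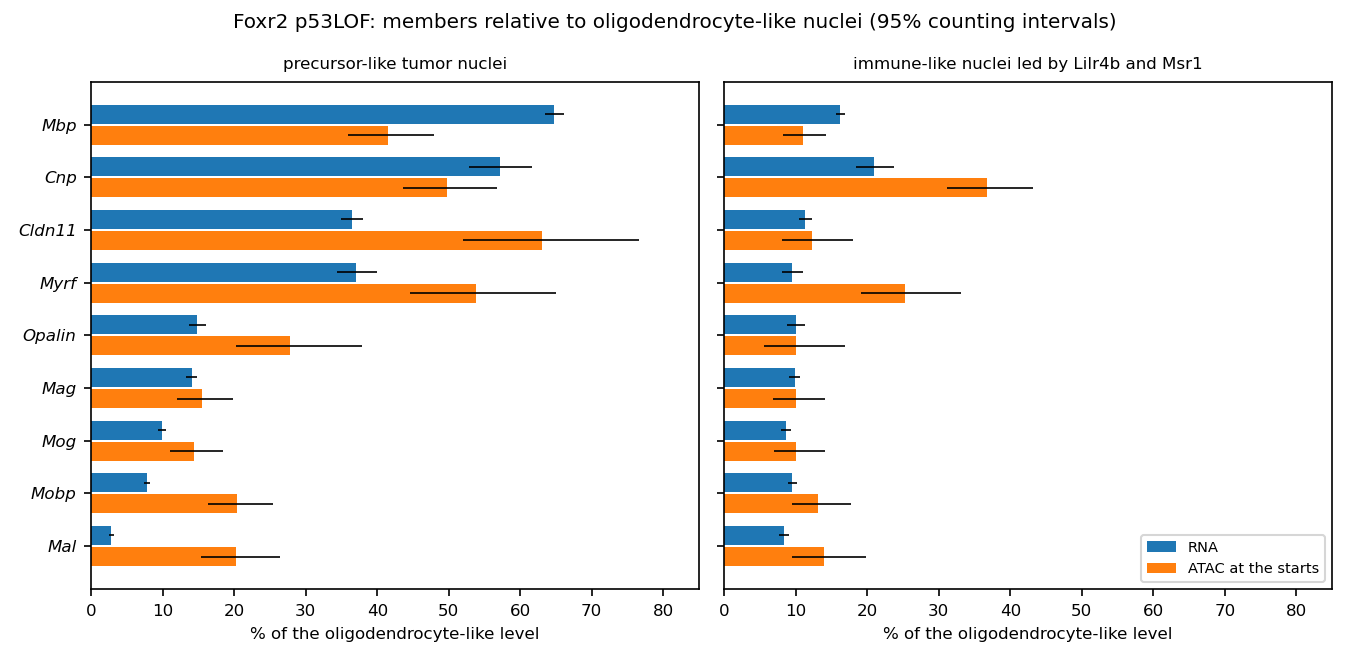
Level of each gene as a percentage of its oligodendrocyte-like level in Foxr2 p53LOF, for RNA (blue) and ATAC counts in the peaks that hold its starts (orange, downstream starts for Mbp), with 95% counting intervals. In precursor-like tumor nuclei (left) the bars run from 2.80% for Mal RNA to 64.7% for Mbp RNA, and in the immune-like nuclei led by Lilr4b and Msr1 (right) RNA stays between 8.32% and 20.95%.

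Open chromatin at the starts was read next, since it does not come from free RNA. Values are peak CPM in the peaks that hold an annotated start, in Foxr2 p53LOF. Mbp has starts in 2 places, and its downstream peak (chr18:82553970-82554866), at the starts of the transcripts for classic myelin basic protein, had 107 (97.5 to 118) in oligodendrocyte-like, 44.5 (39.9 to 49.5) in precursor-like tumor, 10.1 in immune-like and 4.02 in neuron-like nuclei.
At Cldn11 the values were 48.2, 30.4, 4.96 and 6.57 in the same order. Precursor-like tumor nuclei thus had 63.1% (52.0 to 76.7%) of the oligodendrocyte-like level at Cldn11 and 41.5% at the downstream Mbp peak. With Mbp read at that peak, Cldn11 had the highest percentage among the 9 genes. The upstream Mbp peak, given below, was higher in precursor-like tumor than in oligodendrocyte-like nuclei.
At Myrf the values were 54.5 (47.6 to 62.2), 29.3 (25.6 to 33.4), 13.8 (11.2 to 16.9) and 22.6 (19.7 to 25.8). The Myrf start was open to some degree in every class: neuron-like nuclei had 41.4% of its oligodendrocyte-like accessibility beside 1.32% of its RNA level. The log2 ratio of precursor-like tumor over immune-like nuclei at Myrf was 1.08 (0.73 to 1.45), and against neuron-like nuclei it was 0.38 (0.10 to 0.65).
Cnp has 2 start peaks, together 115 in oligodendrocyte-like, 57.3 in precursor-like tumor and 41.9 in immune-like nuclei. The second (chr11:100575385-100575893) set oligodendrocyte-like nuclei apart more, with 74.5 against 32.7 and 12.3, than the first with 40.6, 24.5 and 29.6.

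The lower group was less open too. Precursor-like tumor nuclei had 27.8% (20.2 to 37.9%) of the oligodendrocyte-like accessibility at Opalin, 20.4% at Mobp, 20.2% (15.3 to 26.4%) at Mal, 15.5% at Mag and 14.3% at Mog. In peak CPM, Mog had 72.3 in oligodendrocyte-like nuclei and 10.4 (8.22 to 12.9) in precursor-like tumor nuclei, and Mal 48.7 and 9.84 (7.76 to 12.3). With Mbp read at its downstream starts, the same 4 genes as in RNA, Cldn11, Myrf, Cnp and Mbp, therefore held the highest percentages, at 41.5% to 63.1%, although in another order. Of these, Cnp and Myrf had starts that were also open in nuclei that should lack myelin, as given above. Mal stood out for the gap between its percentages, 20.2% for the start peak against 2.80% for RNA, intervals that do not overlap, and Mobp had 20.4% against 7.80%.
The 2 immune-like clusters differed at some starts and not at others. The Lilr4b and Msr1 cluster had 7.23 (5.13 to 9.91) peak CPM at Mog, 10.0% of the oligodendrocyte-like level, and the Siglech cluster 0.350 (0.000343 to 3.27). At Opalin the first had 3.01 and the second no count (interval up to 2.58). At Myrf they had 13.8 and 13.98, with overlapping intervals.

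Over all peaks in the interval of annotated starts widened by 1000 bases on each side, the 8 myelin genes gave a log2 ratio of precursor-like tumor over immune-like nuclei of 0.45 (0.37 to 0.53). For Mbp the starts span 79435 bases before widening, and the widened interval took in 18 peaks. Some of these peaks were most open in immune-like nuclei, such as chr18:82525769-82526697 with 42.9 peak CPM in immune-like, 18.3 in oligodendrocyte-like and 11.9 in precursor-like tumor nuclei. With peaks within 1000 bases of single starts, chosen after the data were seen, the log2 ratio was 0.77 (0.65 to 0.89).

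Mbp shares its locus with longer transcripts, called Golli, that start far upstream and are known from neurons and immune cells. The upstream start peak (chr18:82474710-82475572 in Foxr2 p53LOF) ran opposite to the downstream one. It had 23.8 (20.8 to 27.1) peak CPM in neuron-like, 19.0 (15.9 to 22.6) in immune-like, 10.2 (8.05 to 12.7) in precursor-like tumor and 5.18 (3.21 to 7.92) in oligodendrocyte-like nuclei. Foxr2 alone had the same order, with 18.9 in neuron-like, 12.6 (7.56 to 19.6) in immune-like and 7.21 (5.67 to 9.04) in oligodendrocyte-like nuclei, although the last 2 intervals overlap, while its downstream peak had 3.34, 1.65 and 116. UMIs are summed over the gene, so Mbp RNA outside oligodendrocytes can hold transcripts of either start, and the share of each was not measured.

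**Figure D3:**
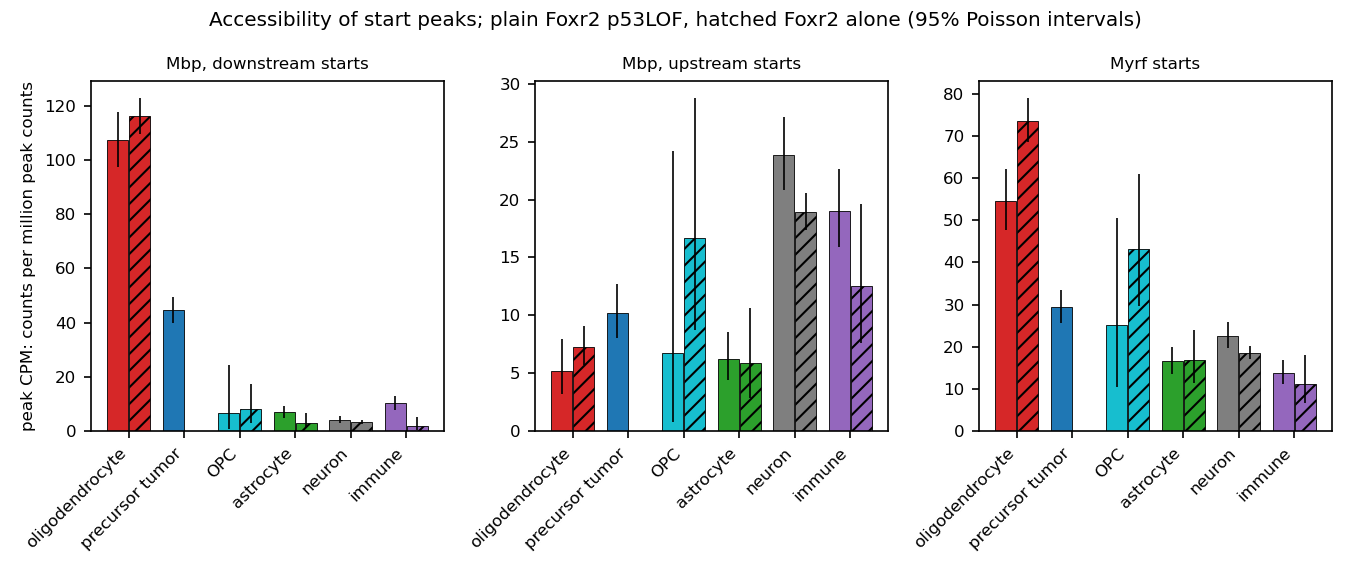
Peak CPM in the peaks at the downstream Mbp starts, the upstream Mbp starts and the Myrf starts, by class, with 95% Poisson intervals. Plain bars are Foxr2 p53LOF and hatched bars Foxr2 alone, which has no precursor-like tumor class. The downstream Mbp starts reach 107 and 116 in oligodendrocyte-like nuclei, the upstream starts 23.8 and 18.9 in neuron-like nuclei, and the Myrf start is above 10 in all classes shown.

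Per nucleus, the genes were counted after each nucleus was thinned to 1000 UMIs, with shallower nuclei left out (81 precursor-like tumor, 31 immune-like and 14 oligodendrocyte-like nuclei of Foxr2 p53LOF). A Myrf UMI was found in 9.17% (7.61 to 10.9%) of 1210 precursor-like tumor nuclei, in 27.1% (24.8 to 29.4%) of oligodendrocyte-like nuclei and in 1.36% (0.871 to 2.01%) of immune-like nuclei. Unthinned shares were 39.0%, 57.1% and 6.50%, at median depths of 7454, 2452 and 2794 UMIs. Mal was found in 3.72% (2.73 to 4.94%) of precursor-like tumor nuclei and 3.90% (3.05 to 4.91%) of immune-like nuclei (15.3% and 11.4% unthinned). These shares do not set it apart from the whole immune-like class. Among thinned nuclei without a Myrf UMI, Mal was found in 4.54% of the Lilr4b and Msr1 cluster and 1.43% of the Siglech cluster. The shares were 3.18% in precursor-like tumor, 1.01% in astrocyte-like and 0.936% in neuron-like nuclei without a Myrf UMI. The interval of these precursor-like tumor nuclei overlapped those of both immune-like clusters, but not those of astrocyte-like and neuron-like nuclei.
Mbp was found in 62.0% of precursor-like tumor, 27.7% of immune-like and 92.3% of oligodendrocyte-like nuclei (86.6%, 55.7% and 99.0% unthinned). Cldn11 followed with 23.6%, 6.72% and 61.8% (62.2%, 19.9% and 84.6% unthinned).
At least 4 of the 9 genes were found together in 81.5% of oligodendrocyte-like nuclei and in 7.77% (94 of 1210) of precursor-like tumor nuclei. The Lilr4b and Msr1 cluster had 58 such nuclei of 1279 (4.53%), and the Siglech cluster 1 of 490.
Nuclei with a Myrf UMI also more often had a UMI of some myelin genes, in immune-like as in precursor-like tumor nuclei, while in oligodendrocyte-like nuclei the intervals overlapped. In precursor-like tumor nuclei, at the common depth of 1000 UMIs, a Mog UMI was found in 20.7% (13.6 to 29.5%) of the 111 nuclei with a Myrf UMI and in 6.37% (70 nuclei) of the 1099 without. Mbp was found in 84.7% and 59.7%, Mag in 27.9% and 11.8%, Mobp in 17.1% and 8.64%, and Mal in 9.01% and 3.18%. The intervals of these 5 genes did not overlap, although those of Mal all but met. For Cnp, with 15.3% and 12.1%, the intervals overlapped, as they did for Cldn11 (30.6% and 22.8%) and Opalin (9.01% and 5.19%). In immune-like nuclei the same split gave Mog in 29.2% (12.6 to 51.1%) of the 24 with a Myrf UMI and in 3.55% of the 1746 without, Mag in 29.2% and 6.53%, and Mbp in 58.3% and 27.3%. In oligodendrocyte-like nuclei it gave Mog in 71.4% (66.7 to 75.7%) of 409 and 66.5% (63.7 to 69.3%) of 1103, Mbp in 91.2% and 92.7%, and Mobp in 65.5% and 68.8%, with overlapping intervals for all 8 genes. The part of oligodendrocyte RNA in this pattern was not tested.

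The make-up of the members' UMIs differed between classes. Myrf gave 35.4 (33.6 to 37.3) of every 1000 UMIs of the 9 genes in precursor-like tumor nuclei, 30.4 (28.8 to 32.1) in oligodendrocyte-like, 23.2 (20.03 to 26.6) in immune-like, 21.6 in neuron-like and 16.7 in astrocyte-like nuclei of Foxr2 p53LOF. The OPC-like nuclei of that library had 46.2 (24.1 to 79.2), from 12 Myrf UMIs, an interval that includes the precursor-like value. Mal gave 9.33 per 1000 in precursor-like tumor nuclei and 106 in oligodendrocyte-like nuclei.
Classes that should lack myelin did not share the oligodendrocyte-like make-up either. In neuron-like nuclei Mbp gave 528 and Cnp 91.8 per 1000, against 325 and 24.4 in oligodendrocyte-like nuclei. In the Foxr2 alone library, neuron-like nuclei had 626 and 91.4 against 403 and 28.6. Cnp and Mbp kept the highest percentages of their oligodendrocyte-like level in neuron-like nuclei, at 7.02% and 3.03% in Foxr2 p53LOF and at 5.53% and 2.69% in Foxr2 alone. Mog was lowest in both, at 0.569% and 0.349%.

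**Figure D4:**
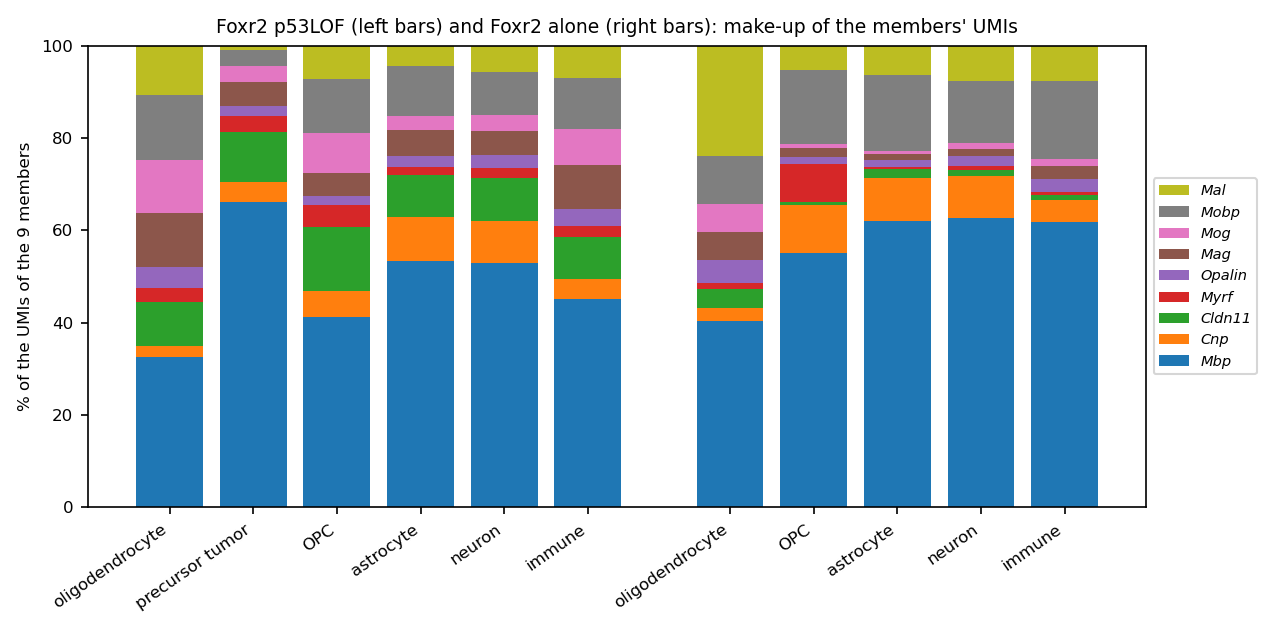
Percent of the UMIs of the 9 genes that each gene gives, by class, with Foxr2 p53LOF on the left and Foxr2 alone on the right. Mal (top, olive) gives 106 of 1000 UMIs in oligodendrocyte-like but 9.33 of 1000 in precursor-like tumor nuclei of Foxr2 p53LOF, and Myrf (red) is widest in OPC-like nuclei of Foxr2 alone, at 82.6 of 1000.

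OPC-like nuclei had few UMIs of the members. In Foxr2 alone, where vector counts could not be read, Myrf stood at 59.7 (39.6 to 86.2) CPM in them, from 28 UMIs, 31.2% (20.6 to 45.5%) of its oligodendrocyte-like level. Immune-like nuclei of that library held 3 Myrf UMIs, 5.28 (1.09 to 15.4), for a log2 ratio of 3.50 (1.80 to 5.86). Cnp had a log2 ratio of 0.95 (0.14 to 1.79), and the other 7 genes stood at or below the immune-like level, with log2 ratios from -1.31 for Cldn11 (2 UMIs) to -0.29 for Mobp and intervals that included 0 for all of these but Mbp (-0.36, -0.63 to -0.09).
After thinning, 12 of these 171 nuclei (7.02%, 3.68 to 11.9%) had a Myrf UMI, and 0 of 280 immune-like nuclei did, which allows a share of up to 1.07% of nuclei with a Myrf UMI at this depth. Thinning left out 144 of the 424 immune-like and none of the OPC-like nuclei. Unthinned, the shares were 14.0% of OPC-like and 0.708% of immune-like nuclei, at medians of 2481 and 1131 UMIs. The Myrf start had 43.3 (29.7 to 60.9) peak CPM in OPC-like nuclei of Foxr2 alone, 58.8% of the oligodendrocyte-like value, while Mobp had 2.56% and the downstream Mbp start 6.88% of theirs.
In Foxr2 p53LOF, 94 OPC-like nuclei held 12 Myrf UMIs, 37.0 (19.1 to 64.7), against 25.9 (22.4 to 29.9) in immune-like nuclei, a log2 ratio of 0.51 (-0.46 to 1.35). Mbp stood at 330 (271 to 399) there, against 504 in immune-like and 2239 in precursor-like tumor nuclei. Both comparisons depend on which immune-like nuclei are used. Against the 494 outside the Lilr4b and Msr1 cluster, Myrf had a log2 ratio of 2.30 (0.997 to 3.63), from 12 and 11 UMIs, and Mbp one of 0.27 (-0.05 to 0.58). Myrf was not alone above 0 there. Mog had 2.38 (1.45 to 3.32), Mal 1.78 (0.84 to 2.70), Mobp 1.04 (0.37 to 1.685) and Cldn11 0.97 (0.37 to 1.55). For Mag (-0.10), Cnp (0.73) and Opalin (0.50) the intervals included 0.

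Within the precursor-like tumor nuclei, UMIs of the proliferation genes Mki67 and Top2a and vector counts were set beside the members, both splits chosen after values were seen. A Mki67 or Top2a UMI was found, unthinned, in 33.4% of precursor-like tumor nuclei, but also in 24.2% of immune-like, 10.5% of neuron-like and 5.50% of oligodendrocyte-like nuclei, so no cycling is read from it. The 431 nuclei with such a UMI were deeper than the 860 without (medians of 10523 and 6399 UMIs), and the part of depth and ambient RNA in the values was not tested.
Nuclei with such a UMI had less Mog (81.3 against 153 CPM, log2 ratio -0.91, -1.08 to -0.74) and less Mal (-0.89, -1.23 to -0.56). Mobp (-0.58, -0.74 to -0.41), Mag (-0.53, -0.67 to -0.40), Mbp (-0.38, -0.42 to -0.34) and Myrf (-0.26, -0.42 to -0.10) were lower too. So were the committed precursor markers Enpp6 (-0.49, -0.58 to -0.40) and Bmp4 (-0.45, -0.69 to -0.21), while the interval of Gpr17 included 0. Pdgfra (0.15, 0.02 to 0.28) and Sox10 (0.16, 0.04 to 0.28) were higher.
For Cnp, Cldn11 and Opalin the interval of the log2 ratio included 0, at 0.04 (-0.10 to 0.17), -0.06 (-0.15 to 0.02) and 0.06 (-0.14 to 0.26). The 342 nuclei with a vector ATAC count gave the same direction for Mog (-0.56, -0.74 to -0.38) and Mal (-0.59, -0.96 to -0.24), with -0.07 (-0.10 to -0.03) for Mbp. Enpp6 (-0.25) and Bmp4 (-0.57) were lower again. Sox10 went the other way than in the first split (-0.21, -0.34 to -0.07), and the interval of Pdgfra included 0 (-0.06, -0.21 to 0.08). These nuclei were also deeper than those without a vector count (medians of 9465.5 and 6921 UMIs), and the part of depth was not tested. In the 342 nuclei Myrf had 109 CPM, against 125 in the 949 without a vector count.

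Other genes of the pathway were read from lists. Of 13 other myelin and myelin lipid genes, 10 were at least 2-fold lower in precursor-like tumor than in oligodendrocyte-like nuclei and 0 higher, where 9.93% of all genes were lower and 26.4% higher (median log2 ratio -1.77, against 0.41 over all genes). Tspan2, a tetraspanin, stood at 1136 and 94.6 CPM in oligodendrocyte-like and precursor-like tumor nuclei, and Cntn2, an adhesion protein, at 641 and 8.98. Ugt8a, which makes galactosylceramide, stood at 686 and 278, and was 4.55-fold above immune-like nuclei.
Against immune-like nuclei, 6 of 12 measured genes of that list were 2-fold higher and 1, Cntn2, was lower, where 16.5% of all genes were higher and 16.5% lower.
Of 11 measured factors that act before or with Myrf, 2 were 2-fold higher in precursor-like tumor than in oligodendrocyte-like nuclei, 2 lower and 7 within 2-fold, where 26.4% of all genes were higher and 9.93% lower. Against immune-like nuclei 6 of the 11 were higher and 0 lower, where 16.5% of all genes were in each direction. Tcf7l2 stood at 273 CPM in precursor-like tumor and 76.8 in oligodendrocyte-like nuclei, and Zfp536 at 590 and 1465 in that order. Chd7, a chromatin remodeler, stood at 666 and 368, and Zeb2 at 1311 and 1804.
Of 6 measured genes that hold back differentiation, 4 were 2-fold higher than in oligodendrocyte-like nuclei and 1 lower, where 26.4% and 9.93% of all genes were. Against immune-like nuclei 2 of 5 were higher, Sox6 and Sox5, and 1 lower, Id2, where 16.5% of all genes were in each direction. Sox6 stood at 1488 CPM in precursor-like tumor, 35.6 in oligodendrocyte-like and 178 in immune-like nuclei. Sox5 stood at 569, 21.1 and 99.97 in the same order. Ptprz1, with 542, 67.7 and 463, and Id2, an inhibitor of basic helix-loop-helix factors, with 45.9, 15.95 and 96.2 in that order, were not 2-fold higher than in immune-like nuclei. None of the 5 Schwann cell genes, which mark myelin of peripheral nerve, reached 10 CPM in either class.

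Genes whose level over 13 pairs of class and library was most like that of Myrf, among 14699 genes and with the members left out, were Fa2h (Pearson r = 0.97), Mcam (0.94), Gal3st1 (0.93), Erbb3 (0.93) and Sox10 (0.93). For the sum of the 8 myelin genes they were Ppp1r14a (0.96), Tubb4a (0.96), Stxbp3 (0.96), Gpr37 (0.95) and Tprn (0.94). Both sets of values are descriptions over pairs that share libraries, and no p-value applies. Fa2h and Gal3st1 make the hydroxylated and sulfated lipids of myelin. Among the members, Mag and Mog were most alike (0.98) and Cldn11 and Mobp least (0.69).

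Oligodendrocyte-like nuclei of the 2 libraries did not carry the members in the same proportions. They fell into separate clusters, one with 1524 of the 1526 nuclei of Foxr2 p53LOF and the other with 3016 of the 3019 of Foxr2 alone, so the ratios compare those clusters. With Foxr2 p53LOF over Foxr2 alone, the log2 ratio was -0.37 (-0.39 to -0.35) for the 8 myelin genes together and 0.76 (0.63 to 0.89) for Myrf. Mal was lower by -1.52 (-1.56 to -1.47), Mbp by -0.65, Cnp by -0.57 and Opalin by -0.44. Cldn11 (0.85), Mog (0.61) and Mag (0.59) were higher, and Mobp was within 0.10.
Past 2-fold was 1 of the 9 genes, Mal, on the lower side, and 0 on the higher side, where 19.7% and 12.7% of 9705 genes were. That is no more than the background. Myrf passed 2-fold on the higher side under stricter minimums for each nucleus (log2 ratio 1.01, 0.79 to 1.23) and at a clustering resolution of 1.0 (1.08, 0.87 to 1.30), with intervals that include 2-fold. Of the 13 other myelin and myelin lipid genes, 4 were 2-fold higher and 0 lower, with Adamts4 at a log2 ratio of 1.56 and Ugt8a at 2.18, and an all-gene median of -0.05.
Depth differed between these nuclei, with medians of 2452 UMIs in Foxr2 p53LOF and 1172 in Foxr2 alone, and so did the mitochondrial share, 0.271% and 0.398%. Their part in the ratios was not tested, and genotype and library cannot be told apart. At the start peaks, called in each library on its own and set side by side only, Mal had 48.7 peak CPM in Foxr2 p53LOF and 56.6 in Foxr2 alone, Mobp 70.9 in 1 peak and 104 in 2 peaks, and Myrf 54.5 and 73.6.

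**Figure D5:**
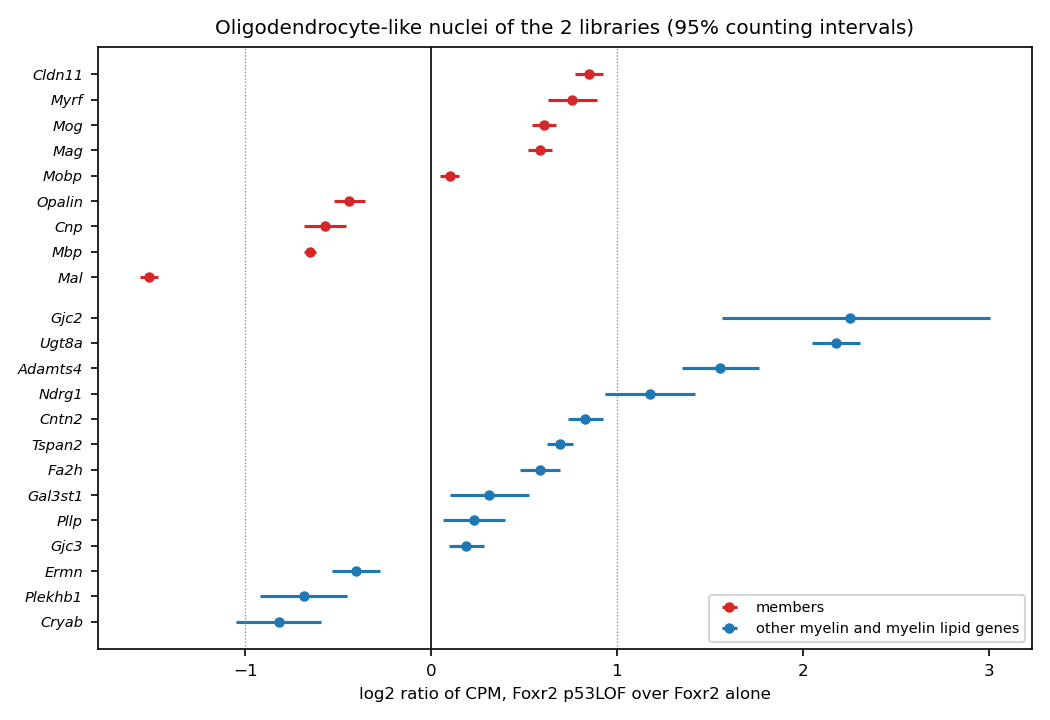
Log2 ratio of CPM in oligodendrocyte-like nuclei, Foxr2 p53LOF over Foxr2 alone, for the 9 genes (red) and 13 other myelin and myelin lipid genes (blue), with 95% counting intervals. Dotted lines mark 2-fold, which Mal passes at -1.52 and Ugt8a at 2.18 on the other side.

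Astrocyte-like nuclei did not relate to immune-like nuclei in the same way in the 2 libraries. For 3 of the 8 members measured in both, Mbp, Mobp and Cnp, the log2 ratios had intervals on opposite sides of 0, where 8.25% of 9759 genes did, and these classes are made of different clusters in the libraries.

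Shares of whole chromosomes were set beside these values. Precursor-like tumor nuclei had 0.852 (chromosome 7) to 1.17 times (chromosome 13) the oligodendrocyte-like share of peak counts on each chromosome. The lowest, chromosome 7, holds Mag. The ratio was 0.913 on chromosome 17 (Mog), 0.928 on 19 (Myrf and Opalin), 0.952 on 11 (Cnp), 0.979 on 9 (Mobp), 1.01 on 2 (Mal), 1.05 on 18 (Mbp) and 1.06 on 3 (Cldn11). Over immune-like nuclei the ratio ran from 0.841 on chromosome 17 to 1.19 on 18. It was 0.861 on 7, 0.883 on 19, 0.920 on 11, 0.998 on 2, 1.06 on 9 and 1.14 on 3. The part of these shares in the values of the 9 genes was not tested.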

How the data were processed

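Nuclei of 3 libraries (6 records) were profiled. In the deposited tables, counts are UMIs per gene and ATAC events per peak for each barcode. The authors ran Cell Ranger ARC 2.0.0 on mm10 with vector sequences added and called peaks in each library on its own. ATAC events mostly come 2 per fragment, so ATAC intervals used counts divided by 2.

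Nuclei passed the study's limits on mitochondrial share, genes, UMIs and fragments in peaks (ATAC events divided by 2). Its limits on transcription start site enrichment and nucleosome signal were not applied here, so the nuclei kept (8359 and 8316) are not the study's set. Scrublet (scanpy 1.11.5, expected rate 8%) removed 353 and 540 doublets. Leiden clustering (leidenalg 0.10.2, resolution 0.5, 2000 variable genes, 30 components, 20 neighbours, seed 100) left out the members and lists. The thresholds for naming clusters were chosen with the data in view, and rebuilt names may differ from the study's.

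UMIs were summed per class and library. Intervals are exact Poisson or Clopper-Pearson. For shares of nuclei a count of 0 allows 3 nuclei, while an ATAC count of 0 has the exact Poisson limit. Genes past 2-fold had 10 CPM in 1 class and 1 CPM added to each level. Named genes were the 9 members, the list genes with most UMIs, and the 5 genes most like Myrf or the myelin sum. The 2-fold rule was tested on simulated data. The members and lists were chosen with earlier results of these data known. The list of other myelin genes is given without 1 gene that is not reported here. Alternatives covered filters, doublets, clustering, totals, the ambient class, promoter windows and thinning.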

Additional observations from a re-analysis of the deposited data

Results flagged for a closer look

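In astrocyte-like over immune-like nuclei, 3 members went opposite ways in the 2 libraries, with intervals on either side of 0, where 8.25% of 9759 genes did so. The difference between the libraries was not tested. The classes are also made of different clusters: astrocyte-like nuclei of Foxr2 p53LOF came mostly from a cluster led by Abcc12 and Egfr and those of Foxr2 alone mostly from one led by Slc39a12 and Slc1a3, and immune-like nuclei of Foxr2 alone came mostly from a cluster led by Ly86 and Inpp5d. Mbp had a log2 ratio of -1.43 (-1.51 to -1.35) in Foxr2 p53LOF and 0.45 (0.26 to 0.64) in Foxr2 alone. Mobp had -1.71 (-1.89 to -1.54) and 0.39 (0.02 to 0.77). Cnp had -0.58 (-0.79 to -0.36) and 1.43 (0.78 to 2.14). The astrocyte-like nuclei of Foxr2 p53LOF had vector ATAC counts in 31.0% of nuclei and a median of 7965 UMIs, and those of Foxr2 alone a median of 2620 UMIs. In UMIs per nucleus, Mbp stood at 1.73 and 2.47 in astrocyte-like nuclei of Foxr2 p53LOF and Foxr2 alone, and at 2.07 and 0.686 in immune-like nuclei. The part of vector-bearing nuclei and of depth in these signs was not tested.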

How the results depend on the processing

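Under 13 alternatives, 71 values were recomputed: 41 moved by less than their counting interval, 30 moved by more and 0 reversed. Log2 ratios follow for the 8 myelin genes in RNA unless another measure is named. With neuron-like nuclei as the ambient level, oligodendrocyte-like nuclei were higher by 5.73 in Foxr2 p53LOF and 5.84 in Foxr2 alone, and precursor-like tumor nuclei by 4.07, with 4.81 for Myrf, 1.33 for promoter peaks and 0.38 for the Myrf promoter. Without the cluster led by Lilr4b and Msr1, chosen after seeing the data, the ratios over immune-like nuclei were 4.403 for oligodendrocyte-like nuclei of Foxr2 p53LOF, 2.75 for precursor-like tumor nuclei, 4.001 for Myrf and 0.74 for promoter peaks. With doublets kept they were 3.08 and, in Foxr2 alone, 2.86 for oligodendrocyte-like nuclei, 1.38 for precursor-like tumor nuclei and 1.67 for Myrf. With minimums of 1000 genes and 1000 peak counts they were 3.28 for oligodendrocyte-like nuclei of Foxr2 alone and 1.67 for precursor-like tumor nuclei, and the ratio between libraries was -0.19, with 1.01 for Myrf. At Leiden resolution 1.0 the same 4 values were 3.797, 1.64, -0.15 and 1.08. These last 2 settings left 543 and 837 oligodendrocyte-like nuclei in Foxr2 alone, of 3019. At resolution 1.0, another 2182 nuclei of Foxr2 alone with all 8 oligodendrocyte markers went unnamed only by the rule on low depth, so these values come from the deeper nuclei. That rule leaves a shallow cluster unnamed when none of its leading genes is a marker. Of the 837 nuclei, 241 formed a cluster led by genes such as mt-Cytb and mt-Nd4, which are mitochondrial. The precursor-like tumor class held 992 nuclei under the stricter minimums, 978 at resolution 1.0 and 967 with members and lists clustered, against 1291. At resolution 1.0 an unnamed cluster of 319 Foxr2 p53LOF nuclei, led by Pomc and Oacyl, had vector counts in 21.9%. With members and lists used for clustering, precursor-like tumor nuclei stood at 1.64 over immune-like nuclei. In the main clustering, those with a vector count stood at 1.53, against 1.58 for all of them. Myrf gave 33.4 per 1000 UMIs of the 9 genes in those with a vector count. Per nucleus, ATAC ratios were 1.13 for the myelin promoters and 1.77 for Myrf. Taking each GENCODE start on its own, also chosen after seeing the data, gave 0.77 for the promoters. The share of precursor-like tumor nuclei with a Myrf UMI was 39.0% without thinning and 19.5% at 2000 UMIs. The cause of these shifts was not tested.

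No paired analysis was possible because counts of 1 library per genotype were analysed here. For the same reason leaving out a library gives no value. Depth limits what can be said of OPC-like nuclei and of immune-like nuclei of Foxr2 alone, where several members rest on fewer than 10 UMIs.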
